A study of Mus musculus with 12 samples.

Results

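The comparison described here asks what removing Tcf7 did to gene expression in natural killer (NK) cells that already lacked Id2. Its members are the 3 libraries of group DKO (Ncr1Cre Id2F/F Tcf7F/F) and the 3 of group Id2KO (Ncr1Cre Id2F/F), 6 of the 12 libraries of the study, and were chosen by these labels. The other 6 libraries were 3 of Tcf1KO (Ncr1Cre Tcf7F/F) and 3 of Ctrl (floxed alleles without Cre, given as Id2F/F or Id2F/FTcf7F/F). They give the effect of Tcf7 targeting together with Cre, with Id2 present. All mice were C57Bl/6, and RNA came from bone marrow cells sorted as NK1.1+CD49b+. Both DKO and Id2KO cells carry Cre, so Cre itself does not separate them. Ctrl cells carry no Cre, so every other group differs from Ctrl in Cre as well as in the targeted genes. In comparisons with Ctrl, Cre and gene loss cannot be told apart. The labels give no age, and call the 3 samples of a genotype independent without saying whether each came from its own animal, so the p-values cover only the spread of these samples, which may be technical.

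NK cells are innate lymphocytes that kill infected or transformed cells and release cytokines. Id2 is a helix-loop-helix protein without a DNA-binding region. It binds E proteins, transcription factors that recognise the E-box motif, and keeps them off DNA. Tcf7 encodes TCF-1, an HMG-box factor of the TCF/LEF family that is high in early NK cells and falls as they mature, a step marked by rising CD11b and KLRG1. Ncr1Cre deletes floxed genes in cells that express Ncr1 (the receptor NKp46), so deletion is limited to that lineage and starts only once Ncr1 is on.

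Values are FPKM, fragments corrected for the length of the gene and for sequencing depth, so levels can be compared between genes. Differences are log2(FPKM + 1) of DKO minus Id2KO unless another pair is named. A gene was called when its adjusted p in limma was under 0.05. A gene is said not to overlap when all 3 DKO libraries lie above, or all 3 below, the 3 Id2KO libraries. The library sizes behind the FPKM, recovered from its steps, were 14261534 to 15788352 reads in DKO and 14189035 to 17403757 in Id2KO. The markers of the sort were present: all 12 NK genes listed for the gate were tested, 0 were called, and they summed to 2453 to 3506 FPKM in DKO and 2249 to 3402 FPKM in Id2KO. Ncr1, which drives Cre, had 62.4, 99.1 and 72.9 FPKM in DKO libraries and 138, 148 and 85.8 FPKM in Id2KO libraries, and the groups overlapped.

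Libraries also differed in RNA of other cells, and this touches several results. Basophil and mast cell markers summed to 649, 112 and 60.6 FPKM in DKO replicates 1, 2 and 3, and to 19.4, 33.4 and 105 FPKM in Id2KO replicates 1, 2 and 3. Erythroid markers summed to 2775, 1256 and 465 FPKM in DKO and to 178, 288 and 1962 FPKM in Id2KO. DKO replicate 1 and Id2KO replicate 3 were thus the highest of their groups. Differences were positive for 12 of 12 basophil and mast cell markers, 15 of 16 erythroid markers and 19 of 20 myeloid markers, and 0 of them were called. Of these lists Mcpt4 alone was at 0 in all 6 libraries. NKT and gamma delta T cell markers summed to 816, 915 and 932 FPKM in DKO, against 241, 322 and 560 FPKM in Id2KO, without overlap. They summed to 677, 910 and 890 FPKM in Tcf1KO and 299, 343 and 312 FPKM in Ctrl. Cd3e and Trac, given below, made up most of these sums, and Cd163l1 went the other way between DKO and Id2KO. No values were found under the gamma delta names Trdc, Trgc1, Trgc2 and Trgc4. A sort on NK1.1 and CD49b can also take NKT cells. In bulk RNA, more cells of a type and more RNA per cell cannot be told apart.

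The targeted genes come first. Id2 had 48.8, 41.2 and 36.8 FPKM in DKO libraries, against 17.8, 17.1 and 19.2 FPKM in Id2KO libraries. All DKO libraries lay above all Id2KO libraries, and both groups lay far below Ctrl, where Id2 had 124, 163 and 170 FPKM. Relative to the Ctrl mean, DKO retained 27.8% and Id2KO 11.9% of the Id2 RNA. The difference, 1.18 ± 0.16 (SE; 95% interval 0.83 to 1.53), was called (limma adjusted p = 0.0205). The call was lost without DKO replicate 1 (adjusted p = 0.094) or 2 (0.0923), and without Id2KO replicate 1 (0.109) or 2 (0.123). It was also lost with voom on recovered reads (0.113). The 2 groups therefore differed in Id2 RNA as well as in Tcf7 genotype, and the part of that difference in the results that follow was not tested.

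Tcf7 had 53.9, 60 and 73.3 FPKM in DKO libraries, against 81.5, 92.1 and 80.9 FPKM in Id2KO libraries. The libraries did not overlap, but the difference of -0.45 ± 0.16 was not called (limma adjusted p = 0.328). Tcf7 stood at 29.6, 37.3 and 38 FPKM in Tcf1KO and at 37.7, 38.6 and 46.5 FPKM in Ctrl, and these overlapped. Every DKO library thus lay above every Ctrl library, at a mean of 152% of Ctrl (limma adjusted p = 0.226, not called), while Id2KO stood at 207%. Which exons were floxed is not given in the sources used here, and the table holds gene totals only, so it does not check the deletion.

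Of the 12384 tested genes, 15 were called between DKO and Id2KO, which is 0.121%. Of these, 10 were higher in DKO (0.0807%) and 5 were lower (0.0404%). The higher genes were Fgl2, Klrb1b, Itgam, Itga1, Entpd1, Cd226, Apobec2, Id2 and the small RNA genes Gm23613 and n-R5s39. The lower genes were Sult5a1, Plcd3, Plxnc1, Pbk and Lsm4. Across all tested genes 6142 differences were positive and 6233 negative, with a median of -0.0035. Libraries did not overlap for 785 genes higher in DKO (6.34%) and 1030 lower in DKO (8.32%).

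The number of calls rested on single libraries. It was 9, 5 and 8 without DKO replicate 1, 2 and 3, and 8, 2 and 31 without Id2KO replicate 1, 2 and 3, against 10 to 15 without 1 Tcf1KO or Ctrl library. A fit of the 6 DKO and Id2KO libraries alone called 0 genes in limma, although 1099 genes had an unadjusted p under 0.05 there. Run on the recovered reads, voom called 11, of which 9 were among the 15; it did not call Id2, Apobec2, Pbk, Lsm4 or the small RNA genes. With all libraries set to the same median, 10 were called, and Id2, Cd226, Entpd1, Lsm4 and n-R5s39 were not (adjusted p = 0.0543 each). Without DKO replicate 1 and Id2KO replicate 3 together, 12 genes were called, of which 5 were among the 15 (Fgl2, Klrb1b, Sult5a1, Plcd3 and Gm23613). With a term for markers of other cells 16 were called, 8 of them among the 15 (those 5 with Itga1, Cd226 and Plxnc1). Both of these settings were chosen after seeing the data. Fgl2 was called whichever of the 12 libraries was left out. So was Sult5a1, which reached 1 FPKM only in the group where it is high (Id2KO) and passed the filter through it.

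Fgl2, a gene of mature NK cells, had the lowest adjusted p of the comparison. It encodes fibrinogen-like protein 2, an immunoregulatory protein with a membrane and a secreted form. The gene had 50, 73.4 and 53.9 FPKM in DKO libraries, against 10.7, 6.83 and 8.75 FPKM in Id2KO libraries. Every DKO library lay above every Id2KO library, and every DKO library also lay above the Ctrl libraries at 36.6, 37.4 and 42.8 FPKM. The mean was 59.1 ± 12.5 FPKM in DKO and 8.75 ± 1.92 FPKM in Id2KO (SD, n = 3 each), a difference of 2.62 ± 0.24 (limma adjusted p = 0.00361). Fgl2 was 152% of the Ctrl mean in DKO and 22.5% in Id2KO.

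Klrb1b encodes NKR-P1B, an inhibitory receptor for the ligand Clr-b on healthy cells. Its level was 21.7, 27.3 and 21.6 FPKM in DKO libraries, against 6.25, 5.07 and 2.58 FPKM in Id2KO libraries. The groups did not overlap, and the DKO values came up to the lower end of Ctrl, at 26, 35.6 and 38.7 FPKM. The difference was 2.18 ± 0.27 (limma adjusted p = 0.0121), and it was no longer called without DKO replicate 2 (0.0662) or Id2KO replicate 2 (0.0703). Klrb1b was 70.3% of the Ctrl mean in DKO and 13.8% in Id2KO.

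Itgam encodes CD11b, the integrin alpha chain used to stage NK maturation. It had 4.29, 4.93 and 4.14 FPKM in DKO libraries, against 1.14, 1.65 and 1.004 FPKM in Id2KO libraries. These did not overlap, yet all DKO libraries stayed below the Ctrl libraries at 9.69, 8.77 and 8.76 FPKM, so DKO reached 49.1% of the Ctrl mean and Id2KO 13.9%. The difference was 1.28 ± 0.19 (limma adjusted p = 0.0311). The call was fragile: it held in 2 of 12 fits with 1 library left out, those without Tcf1KO replicate 1 or 3, and the adjusted p over the 12 ranged up to 0.132. Itgam is also a gene of myeloid cells, whose 21 listed markers summed to 826, 328 and 536 FPKM in DKO and 64.1, 193 and 1063 FPKM in Id2KO. In Ctrl these markers summed to 2238, 3717 and 933 FPKM. The part of myeloid cells in the Itgam difference and in its shares of the Ctrl mean was not tested.

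A further group of called genes was higher in DKO than in Id2KO and also stood above Ctrl. Itga1 encodes CD49a, the collagen-binding integrin chain typical of type 1 innate lymphoid cells (ILC1) and tissue-resident NK cells. It had 7.30, 5.41 and 8.65 FPKM in DKO libraries, against 1.04, 0.983 and 1.02 FPKM in Id2KO libraries and 2.77, 2.67 and 1.48 FPKM in Ctrl libraries. DKO libraries were above both other groups without overlap. The difference from Id2KO was 1.99 ± 0.21 (limma adjusted p = 0.0069), and the call was lost without Id2KO replicate 2 (0.057) or without both DKO replicate 1 and Id2KO replicate 3 (0.0746).

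Entpd1 encodes CD39, an enzyme that breaks down extracellular ATP. It had 4.69, 3.35 and 4.96 FPKM in DKO libraries, against 0.839, 0.448 and 1.41 FPKM in Id2KO libraries, which did not overlap (difference 1.51 ± 0.22; limma adjusted p = 0.0311). Its call held in 2 of 12 fits with 1 library left out, those without Id2KO replicate 3 or Tcf1KO replicate 3, with the adjusted p reaching 0.154. Cd226 encodes DNAM-1, an activating receptor that binds nectin-family ligands. Its libraries held 28.2, 31.4 and 26.8 FPKM in DKO and 10.5, 11.2 and 12.9 FPKM in Id2KO, again without overlap (1.25 ± 0.17; limma adjusted p = 0.0205). The Cd226 call was lost without any 1 of the 3 DKO libraries or without Id2KO replicate 1 or 2, where the adjusted p lay between 0.0706 and 0.123.

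Apobec2, a member of the APOBEC deaminase family best known from muscle, was low in all groups. It had 2.36, 2.65 and 2.30 FPKM in DKO libraries, from 43, 51 and 40 reads, against 0.289, 0.116 and 0.377 FPKM in Id2KO libraries, from 5, 2 and 8 reads. The difference was 1.45 ± 0.20 (limma adjusted p = 0.0226). It was called in 5 of 12 fits with 1 library left out, and lost without any DKO library, without Id2KO replicate 1 or 2, and without Tcf1KO replicate 1 or 2, with the adjusted p between 0.0504 and 0.123. The groups did not overlap.

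Both small RNA genes passed the expression filter through DKO libraries alone. The snoRNA gene Gm23613 had 49.9, 9.46 and 11.3 FPKM in DKO libraries and was at 0 in all Id2KO libraries (fitted difference 4.23, which depends on the pseudocount; limma adjusted p = 0.0106), and it was not called without Id2KO replicate 2. Gm23613 carries a Gm name and was named after its values were seen. The 5S rRNA copy n-R5s39 rested on 14, 7 and 7 reads in DKO and 2, 0 and 0 reads in Id2KO (limma adjusted p = 0.0369). It belongs to a family of near-identical copies, among which reads can be split. Its call held in 1 of 12 fits with 1 library left out, the one without Id2KO replicate 1, and was lost with voom on reads (0.226).

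Among the genes lower in DKO, Sult5a1 and Plcd3 were near 0 there. Sult5a1 encodes a cytosolic sulfotransferase. It had 0.126, 0 and 0 FPKM in DKO libraries, from 9, 0 and 0 reads, against 4.02, 6.47 and 3.59 FPKM in Id2KO libraries, from 272, 437 and 297 reads. It was 0 in every Tcf1KO library and in 2 of 3 Ctrl libraries, so Sult5a1 was seen above 1 FPKM only in Id2KO and passed the filter through that group. The difference was -2.42 ± 0.24 (limma adjusted p = 0.00402).

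Plcd3, a phospholipase C of the delta type, had 0.185, 0.039 and 0 FPKM in DKO libraries, from 18, 4 and 0 reads, against 3.48, 4.63 and 2.23 FPKM in Id2KO libraries, from 322, 427 and 252 reads. Ctrl libraries held 0.190, 0.407 and 0.566 FPKM, from 20, 37 and 60 reads, so DKO lay below both groups without overlap. The separation from Ctrl was narrow and near the floor, at 18 reads in the highest DKO library and 20 in the lowest Ctrl library. Tcf1KO, at 0.0657, 0.0248 and 0.0228 FPKM, also lay below Ctrl without overlap. Plcd3 reached 1 FPKM in the Id2KO libraries alone and so passed the filter through the group where it is high, as Sult5a1 did. The difference from Id2KO was -2.02 ± 0.25 (limma adjusted p = 0.0121). The Plcd3 call was lost without DKO replicate 2 (0.0662) or 3 (0.0645) and without Id2KO replicate 1 (0.0942) or 2 (0.0824), and both Plcd3 and Sult5a1 lost it with a pseudocount of 0.1 (0.0862 for Plcd3, 0.103 for Sult5a1).

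Plxnc1 encodes plexin C1, the receptor for semaphorin 7A. It had 5.65, 7.72 and 4.91 FPKM in DKO libraries, against 16.3, 20.1 and 16.4 FPKM in Id2KO libraries. DKO libraries were the lowest of the study: Tcf1KO had 11.8, 12.1 and 11.3 FPKM and Ctrl 13.4, 13.3 and 15.3 FPKM. The difference from Id2KO was -1.40 ± 0.17 (limma adjusted p = 0.0106), lost without Id2KO replicate 2 (0.0703) or without both DKO replicate 1 and Id2KO replicate 3 (0.0747). DKO was at 43.5% and Id2KO at 125% of the Ctrl mean.

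Pbk, a kinase active in mitosis, had 3.07, 3.08 and 2.85 FPKM in DKO libraries, against 7.26, 7.79 and 7.04 FPKM in Id2KO libraries (difference -1.06 ± 0.15; limma adjusted p = 0.0284). Lsm4, a subunit of the ring that binds U6 snRNA in splicing, had 14.9, 16.9 and 14.0 FPKM in DKO libraries, against 30.1, 31.2 and 31.7 FPKM in Id2KO libraries (-0.98 ± 0.15; limma adjusted p = 0.0369). Neither gene overlapped between the groups, and DKO was the lowest group for both. Pbk was called in 4 of 12 fits with 1 library left out (without Ctrl replicate 2, Id2KO replicate 3, or Tcf1KO replicate 2 or 3). Lsm4 was called only in the fit without Tcf1KO replicate 1. The highest adjusted p was 0.155 for Pbk and 0.169 for Lsm4.

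**Figure D1:**
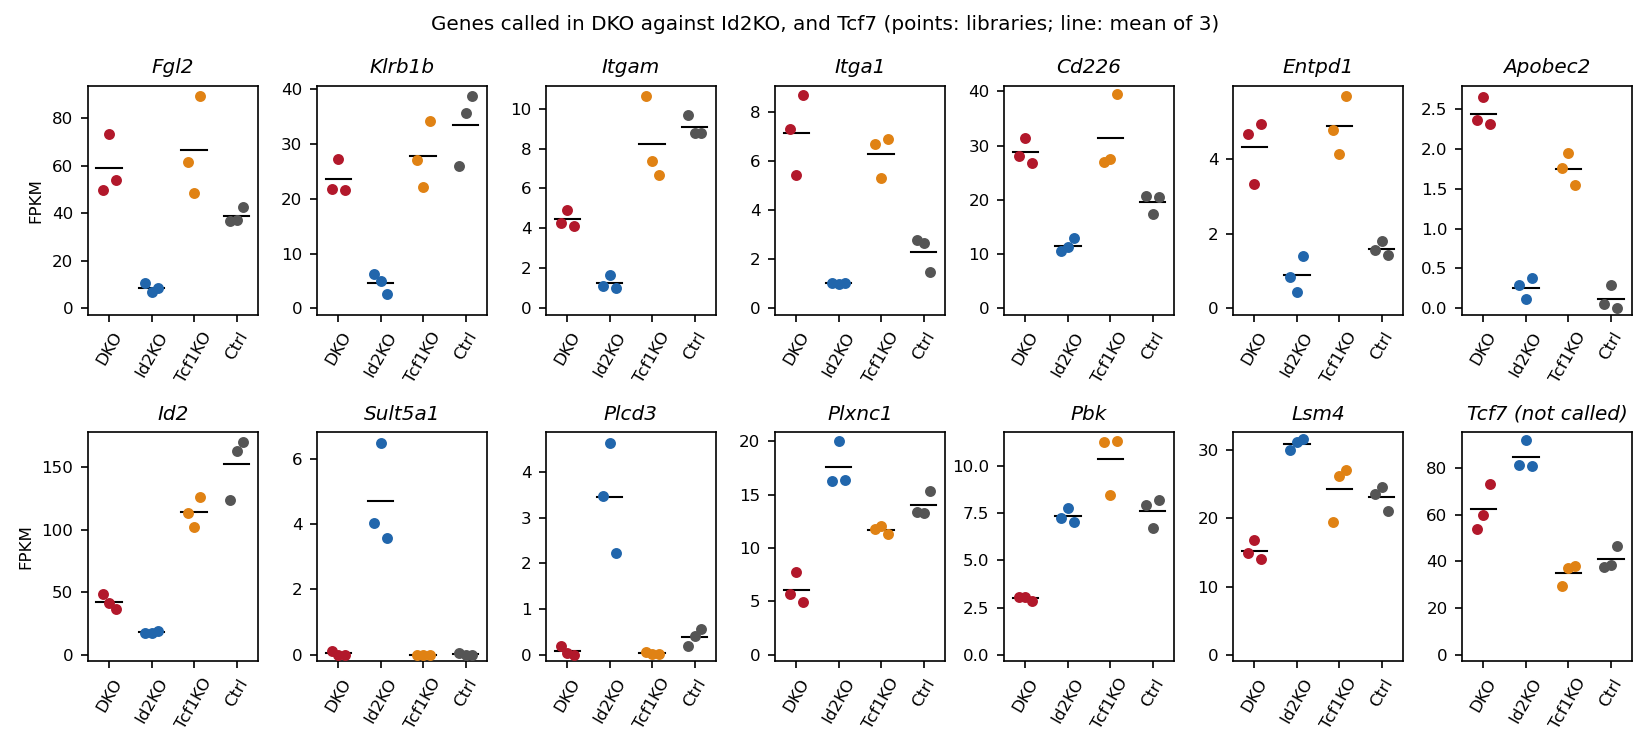
FPKM (linear axes) of 13 called genes and of Tcf7 in DKO, Id2KO, Tcf1KO and Ctrl, with a point for each library and a line at the mean of 3. Fgl2 lies at 50 to 73.4 FPKM in DKO and 6.83 to 10.7 FPKM in Id2KO, while Sult5a1 lies above 3 FPKM in Id2KO alone.

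Vegfc, a growth factor for lymphatic vessels, just missed the threshold. It had 0.0256, 0.146 and 0.0269 FPKM in DKO libraries, from 1, 6 and 1 reads, against 8.79, 3.57 and 3.55 FPKM in Id2KO libraries, from 326, 132 and 161 reads. The groups did not overlap (-2.47 ± 0.40; limma adjusted p = 0.0524), and Vegfc was called without Tcf1KO replicate 3 (0.02). It was also low in Tcf1KO, at 0.164, 0.206 and 1.93 FPKM, against 6.15, 4.80 and 8.32 FPKM in Ctrl. Ccl4, a chemokine that NK cells release on activation, had 266, 158 and 181 FPKM in DKO libraries and 63.5, 59.5 and 87.8 FPKM in Id2KO libraries (1.49 ± 0.26; limma adjusted p = 0.0786).

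Promoters of the called genes were read to show which letters lie next to their starts. RefSeq promoters (GRCm38.p6) were read for 10 of the 15 called genes, and the 250 bases before the start were searched on both strands. Cd226, Pbk, Lsm4 and the small RNA genes were not read. The search passed over called genes of a single chromosome by rule, which was not applied to the shares over all promoters. The motifs were the TCF/LEF core, CTTTGA or CTTTGT, and the E-box, CANNTG. The core was found in 2 of the 10 promoters (20%), against 27.7% of 27025 promoters of the same length. An E-box was found in 8 of the 10 (80%), against 66.0%. The promoters of 4 genes higher in DKO follow, chosen to show a core beside an E-box, E-boxes alone and neither; capitals mark the matches.
Itga1: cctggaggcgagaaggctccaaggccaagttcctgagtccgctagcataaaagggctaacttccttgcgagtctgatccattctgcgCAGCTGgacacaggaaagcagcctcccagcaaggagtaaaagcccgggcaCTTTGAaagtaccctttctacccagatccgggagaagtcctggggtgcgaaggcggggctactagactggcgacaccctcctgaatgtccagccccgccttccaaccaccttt
Itgam: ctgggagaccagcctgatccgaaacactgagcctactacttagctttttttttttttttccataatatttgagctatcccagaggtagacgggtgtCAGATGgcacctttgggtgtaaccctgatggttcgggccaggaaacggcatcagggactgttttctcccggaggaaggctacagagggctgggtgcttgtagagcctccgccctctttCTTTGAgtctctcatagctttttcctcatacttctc
Fgl2: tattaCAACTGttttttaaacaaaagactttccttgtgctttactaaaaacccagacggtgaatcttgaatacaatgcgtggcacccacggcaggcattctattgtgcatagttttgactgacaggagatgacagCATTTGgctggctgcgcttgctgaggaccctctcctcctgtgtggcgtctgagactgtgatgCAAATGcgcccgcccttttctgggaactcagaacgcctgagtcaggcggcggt
Klrb1b: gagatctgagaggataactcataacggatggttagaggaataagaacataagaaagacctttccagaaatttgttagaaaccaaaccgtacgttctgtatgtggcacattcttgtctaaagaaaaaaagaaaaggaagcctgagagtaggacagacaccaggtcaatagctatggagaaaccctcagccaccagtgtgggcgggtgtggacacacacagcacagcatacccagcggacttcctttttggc
These are chr13:115101965-115102214 on the minus strand (Itga1), chr7:128062390-128062639 on the plus strand (Itgam), chr5:21372423-21372672 on the plus strand (Fgl2) and chr6:128826316-128826565 on the minus strand (Klrb1b). Itga1 holds CTTTGA 113 to 108 bases before the start and the E-box CAGCTG further upstream. Itgam holds CTTTGA 36 to 31 bases before the start and 1 E-box, CAGATG. Fgl2 holds 3 E-boxes and no core, and Klrb1b neither. A match is a description of these letters and not a bound site. The genes themselves (GENCODE M21, GRCm38, exons and introns together) lie at chr13:114953096-115101964 (Itga1, minus strand), chr7:128062640-128118491 (Itgam, plus), chr5:21372642-21378374 (Fgl2, plus) and chr6:128813706-128826331 (Klrb1b, minus). Plxnc1 lies at chr10:94790866-94944835 (minus) and Sult5a1 at chr8:123140192-123158315 (minus).

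Genes that differed between Id2KO and Ctrl, which also differ in Cre, can be followed into DKO. Between Id2KO and Ctrl 22 genes were called (0.178%), 13 higher and 9 lower in Id2KO. Of these, 6 (Id2, Itgam, Klrb1b, Fgl2, Sult5a1 and Plcd3) were also called between DKO and Id2KO. Both comparisons use the same Id2KO libraries, so the values are given side by side and not compared.

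The receptors lower in Id2KO than in Ctrl stood at different shares of the Ctrl mean in DKO. Klrg1, a receptor of terminally mature NK cells, had 5.05, 4.43 and 4.71 FPKM in DKO libraries, against 2.88, 2.04 and 0.650 FPKM in Id2KO libraries and 26.1, 28.9 and 17.8 FPKM in Ctrl libraries. Klrg1 did not overlap between DKO and Id2KO, yet DKO reached 19.5% of the Ctrl mean where Fgl2 reached 152% (limma adjusted p of Klrg1 = 0.202). S1pr5, the sphingosine receptor that lets mature NK cells leave the marrow, had 1.95, 3.55 and 1.43 FPKM in DKO, 1.41, 0.395 and 0.322 FPKM in Id2KO, and 9.50, 23.4 and 15.03 FPKM in Ctrl. It stood at 14.5% of the Ctrl mean in DKO and 4.43% in Id2KO, and DKO lay below every Ctrl library. Klra9, the Ly49I receptor, was at 54.5% in DKO and 25.8% in Id2KO, and Il12rb2, a chain of the interleukin-12 receptor, at 67.8% and 45.9%. Neither was called between DKO and Id2KO. In Tcf1KO, Klrg1 stood at 147%, S1pr5 at 57.5%, Klra9 at 61.7% and Il12rb2 at 83.5% of the Ctrl mean. Klra9 lay below Ctrl and Klrg1 above it there without overlap, and S1pr5 and Il12rb2 overlapped.

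Genes higher in Id2KO than in Ctrl follow. Sult5a1 and Plcd3 were near 0 in DKO, as given above. Nsg2, a vesicle-trafficking protein known from neurons, had 18.3, 17.2 and 22.9 FPKM in DKO libraries, against 32.4, 38.5 and 29.2 FPKM in Id2KO libraries and 6.80, 5.22 and 6.47 FPKM in Ctrl libraries. Its DKO libraries lay between the other groups without overlap (DKO minus Id2KO -0.75 ± 0.20; limma adjusted p = 0.199). Id3, the other Id protein found in lymphocytes, had 10.3, 9.72 and 15.4 FPKM in DKO and 11.7, 25.8 and 16.0 FPKM in Id2KO, which overlapped, against 1.70, 2.93 and 1.66 FPKM in Ctrl. Hdac4, a histone deacetylase, had 6.86, 8.40 and 7.51 FPKM in DKO and 8.49, 10.05 and 8.10 FPKM in Id2KO, against 4.24, 3.19 and 3.496 FPKM in Ctrl. Id3 and Hdac4 thus stayed above Ctrl in every DKO library. Cd3d, a chain of the T cell receptor complex, likewise had 50.03 to 56.6 FPKM in DKO and 61.5 to 103 FPKM in Id2KO, against 26.6 to 29.8 FPKM in Ctrl. Tcf1KO, which has Id2 and carries Cre, also lay above Ctrl without overlap for Nsg2, Hdac4 and Cd3d, though none was called there. In Tcf1KO libraries Nsg2 had 11.1, 15.9 and 9.71 FPKM and Hdac4 had 6.61, 6.55 and 6.26 FPKM. Cd3d had 51.6, 70.6 and 68.3 FPKM in Tcf1KO. Id3 overlapped between Tcf1KO and Ctrl.

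**Figure D2:**
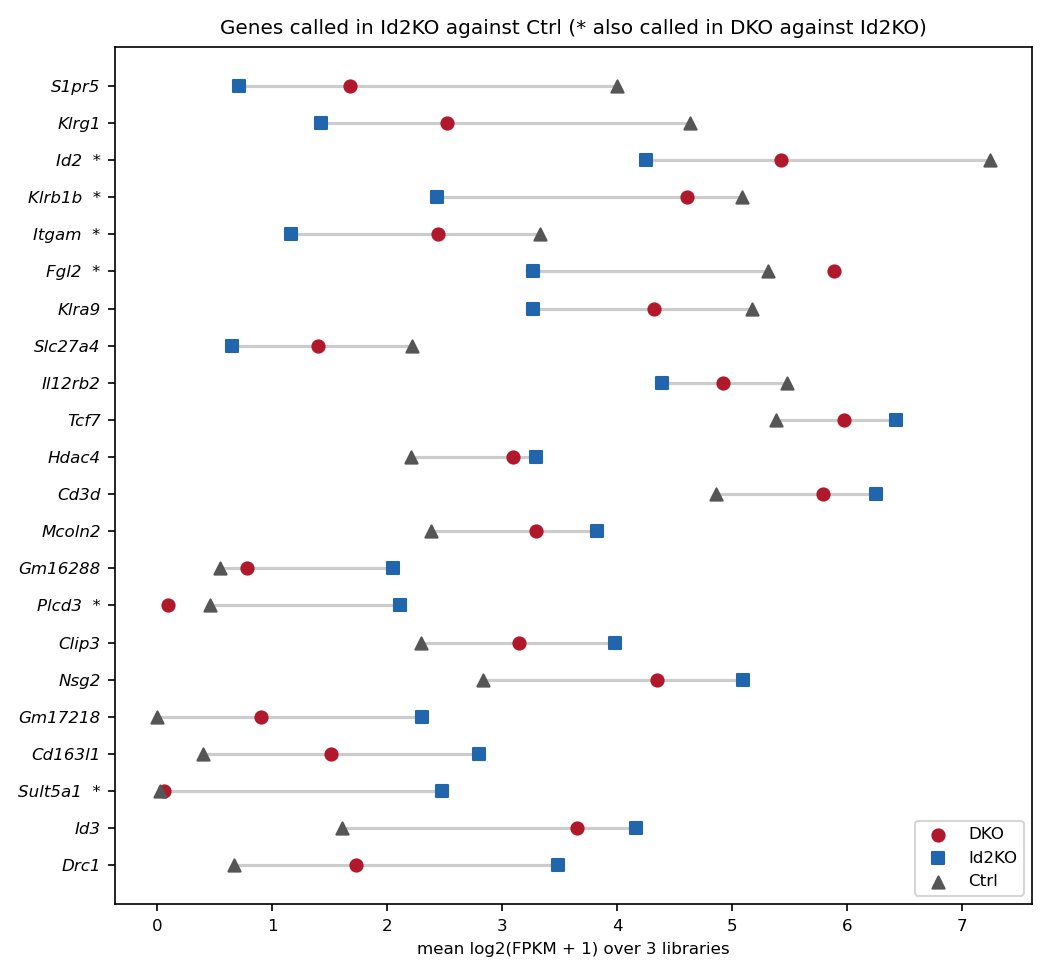
Mean log2(FPKM + 1) over 3 libraries of the 22 genes called between Id2KO and Ctrl, in DKO (circles), Id2KO (squares) and Ctrl (triangles), with grey lines joining Id2KO and Ctrl and asterisks for genes also called between DKO and Id2KO. Fgl2, at 152% of Ctrl in DKO and 22.5% in Id2KO, and Klrg1, at 19.5% in DKO and 7.66% in Id2KO, mark how much the genes differed.

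Tcf7 targeting with Id2 present was followed in the other 6 libraries, where it comes together with Cre. Between Tcf1KO and Ctrl limma called 0 genes (0%), with 594 at an unadjusted p under 0.05, against 1351 between DKO and Id2KO. If no gene differed, a share of 0.05 of the 12384 tested genes would be expected under that limit. The test of the difference itself, (DKO minus Id2KO) minus (Tcf1KO minus Ctrl), called 0 genes (0%) in limma, with 735 at an unadjusted p under 0.05, and 0 with voom. It called 1 gene without DKO replicate 1 (Gm23613) and 1 gene without a variance trend (Sult5a1). So no gene was shown to respond to Tcf7 targeting in Id2-deficient cells otherwise than in cells with Id2. The test sets a pair that shares Cre against a pair that differs in it. The lowest adjusted p in that test was 0.085, shared by Sult5a1, Id2, Pbk, Gm23613 and Gm16288.

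These 2 effects share no library. Over the 12384 tested genes their differences had Pearson's r of 0.179 and Spearman's rho of 0.136, a description across genes, which are not independent, and 54.9% had the same sign. Of the 1815 genes whose DKO and Id2KO libraries did not overlap, 1101 had the same sign in Tcf1KO against Ctrl, or 60.7%. Of the 15 called genes, 8 did.

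Gene by gene the pattern was uneven. Itga1 had 6.67, 5.30 and 6.88 FPKM in Tcf1KO libraries, against 2.77, 2.67 and 1.48 FPKM in Ctrl libraries, without overlap (1.16 ± 0.21; limma adjusted p = 0.195). Entpd1 had 4.80, 4.15 and 5.71 FPKM in Tcf1KO, against 1.56, 1.81 and 1.43 FPKM in Ctrl (1.17 ± 0.22; 0.195). Apobec2 had 1.75, 1.94 and 1.54 FPKM in Tcf1KO, against 0.0507, 0.294 and 0 FPKM in Ctrl (1.31 ± 0.20; 0.143). These genes, with Cd226 and Fgl2, did not overlap between Tcf1KO and Ctrl and lay higher in Tcf1KO, though none was called there.

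Klrb1b, Itgam and Sult5a1 overlapped between Tcf1KO and Ctrl. Klrb1b had 27.1, 22.1 and 34.2 FPKM in Tcf1KO and 26, 35.6 and 38.7 FPKM in Ctrl, which overlapped (-0.26 ± 0.27). Itgam differed by -0.15 ± 0.19 and Sult5a1 by -0.02 ± 0.24 between Tcf1KO and Ctrl. Their intervals in the test of the difference were 1.60 to 3.27 for Klrb1b, 0.84 to 2.01 for Itgam and -3.13 to -1.66 for Sult5a1 (limma adjusted p 0.107, 0.234 and 0.085). Pbk pointed the other way, with 11.3, 8.47 and 11.4 FPKM in Tcf1KO and 7.94, 6.75 and 8.22 FPKM in Ctrl (0.39 ± 0.15).

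**Figure D3:**
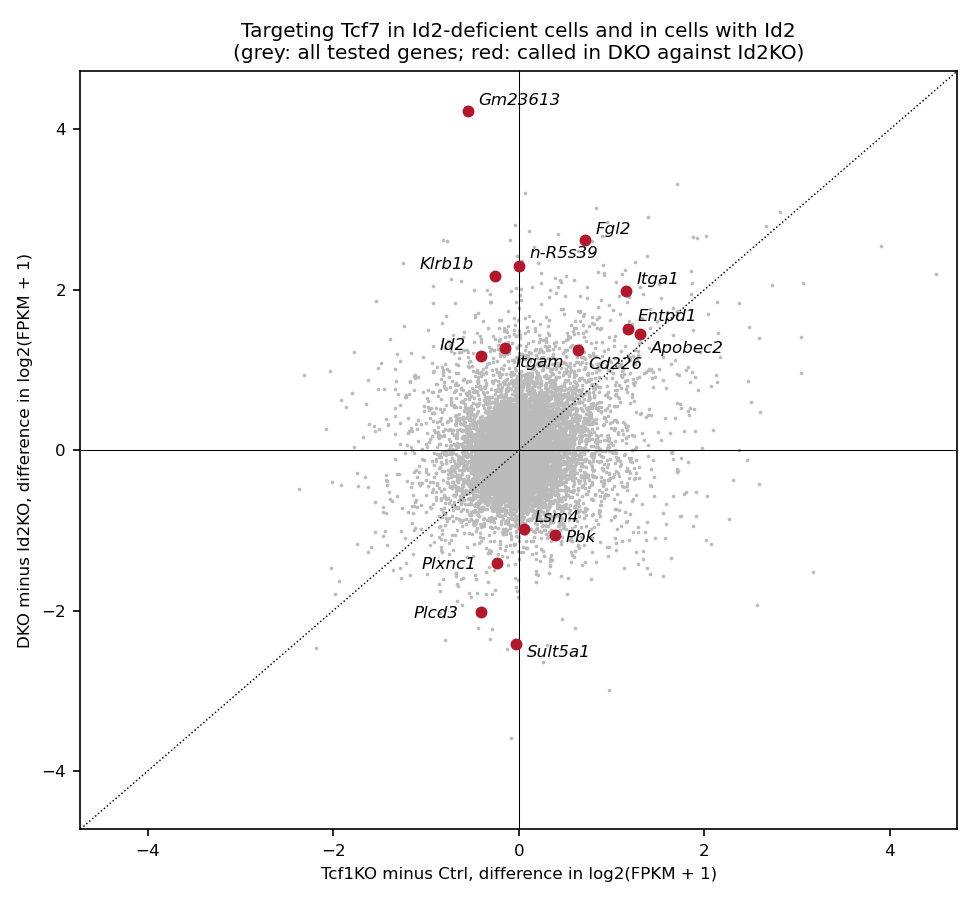
Difference in log2(FPKM + 1) of DKO minus Id2KO (vertical axis) and of Tcf1KO minus Ctrl (horizontal axis) for every tested gene (grey), with the 15 genes called between DKO and Id2KO in red and a dotted line at equal differences. Itga1 (1.99 and 1.16), Entpd1 (1.51 and 1.17) and Apobec2 (1.45 and 1.31) lie above 0 on both, while Klrb1b (2.18 and -0.26) and Sult5a1 (-2.42 and -0.02) lie away from 0 on the first and near it on the second.

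Gene lists from textbook knowledge describe the rest of the program. Of the 27 mature NK markers, 3 were called higher (Fgl2, Klrb1b and Itgam) and 0 lower, against 0.0807% and 0.0404% of all tested genes. These 3 were known from earlier results of these data when the list was made, so their calls do not support its direction. In the list 19 differences were positive and the median was 0.45, against -0.0035 over all genes. In all, 9 of the list, these 3 included, did not overlap and were higher in DKO (6.34% of all tested genes), and 2 were lower (8.32%). Gzma, a granzyme that NK cells inject into targets, had 710, 1132 and 657 FPKM in DKO libraries and 470, 357 and 211 FPKM in Id2KO libraries (1.30 ± 0.29; limma adjusted p = 0.143). Gzmb, a second granzyme, had 67.2, 81.2 and 29.7 FPKM in DKO and 21.4, 35.5 and 23.5 FPKM in Id2KO, which overlapped. Of the 19 cytotoxic effectors, 0 were called, 14 were positive and the median was 0.12 (0.32 without DKO replicate 3).

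Immature NK markers had a median difference of -0.07, and of 0.04 without DKO replicate 1. Of the 20 markers 0 were called, 6 did not overlap and were lower in DKO and 0 were higher, where 8.32% of all tested genes were lower in this way and 6.34% higher. Tcf7, the targeted gene itself, is in the list and among the 6. Slamf6, a receptor of the SLAM family, had 4.40, 11.1 and 8.83 FPKM in DKO and 32.8, 29.6 and 16.3 FPKM in Id2KO (-1.60 ± 0.37; limma adjusted p = 0.152). Kit, the stem cell factor receptor, had 1.1, 0.898 and 1.02 FPKM in DKO and 3.47, 4.38 and 2.47 FPKM in Id2KO (-1.12 ± 0.23; 0.111). Both were lower in every DKO library. Of the 27 genes of the naive T and memory program that TCF-1 is known for, 0 were called, 18 were negative and the median was -0.15 (-0.31 without DKO replicate 3 and -0.06 without DKO replicate 1). Tcf7 itself is in this list too, among the 18.

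Receptors that recognise MHC class I and related ligands held members on both sides. Of the 12 Ly49 receptors 0 were called, 8 were negative and the median was -0.43, and of the 8 NKG2 and CD94 genes 0 were called, 7 were negative and the median was -0.30. The Ly49 median was -0.23 without DKO replicate 3 and -0.69 without Id2KO replicate 3, and the NKG2 and CD94 median -0.13 without DKO replicate 1 and -0.47 without DKO replicate 2. Klra4, the Ly49D receptor, had 22.2, 21.5 and 13.6 FPKM in DKO and 48.1, 57.7 and 28.7 FPKM in Id2KO, while Klra9 had 18.04, 24.1 and 15.8 FPKM in DKO and 13.5, 8.38 and 5.57 FPKM in Id2KO. Of the 7 NKR-P1 receptors and Clr ligands, Klrb1b alone was called (0.121% of all tested genes). Its relative Klrb1a had 11.02, 21.9 and 8.47 FPKM in DKO and 43.2, 60.6 and 23.0 FPKM in Id2KO (-1.55 ± 0.37; limma adjusted p = 0.166), the opposite direction to Klrb1b without a call. Between Tcf1KO and Ctrl the median was -0.52 for the Ly49 list and -0.40 for the NKG2 and CD94 list. Ly49 genes are close paralogs among which reads can be split. Of the 23 activating receptors and adaptors, 1 was called, Cd226 (0.121% of all tested genes), and 11 were positive.

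Of the 15 integrins tested, Itga1 and Itgam were called, against 0.121% of all tested genes, and the median was 0.24 (0.11 without Id2KO replicate 2). Both called integrins were known from earlier results of these data when the list was made, so their calls are not a result about integrins. Itgb3, a beta chain of vitronectin receptors, had 1.68, 1.503 and 0.987 FPKM in DKO and 6.42, 6.85 and 5.89 FPKM in Id2KO (-1.64 ± 0.33; limma adjusted p = 0.111). Of the 22 features of ILC1 and tissue-resident cells, 1 was called (Itga1, against 0.121% of all tested genes). In this list 16 were positive and the median was 0.65, with 0.26 between Tcf1KO and Ctrl. In this list 8 did not overlap and were higher (6.34% of all tested genes) and 2, Kit and Eomes, were lower (8.32%). Eomes also stands among the NK genes of the gate, and Cd3e, a member higher in DKO, among the T cell genes. Neither is particular to ILC1. Cxcr6, a chemokine receptor of resident cells, had 10.2, 13.0 and 14.0 FPKM in DKO and 4.20, 1.01 and 3.92 FPKM in Id2KO (1.84 ± 0.52; limma adjusted p = 0.22). Ikzf2, the transcription factor Helios, had 23.4, 29.8 and 35.1 FPKM in DKO and 10.9, 9.80 and 18.8 FPKM in Id2KO (limma adjusted p = 0.12, and 0.0299 without Id2KO replicate 3). T cells also express several of these genes, and the NKT and gamma delta T marker sums given above moved with them. Cd3e is in both lists, so part of this shared movement is built in. The part of T cells was not tested. Of the 21 chemokine and homing receptors 1 was called lower, Plxnc1 (0.0404% of all tested genes), with 10 positive.

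T cell genes lay on both sides. Cd3e, a chain of the T cell receptor complex, had 351, 414 and 416 FPKM in DKO libraries and 85.8, 111 and 218 FPKM in Id2KO libraries. The libraries did not overlap, and the difference of 1.61 ± 0.28 was not called (limma adjusted p = 0.0891), but was without Id2KO replicate 3 (0.011) and with voom (0.0184). Trac, the alpha chain constant gene, had 447, 483 and 499 FPKM in DKO and 143, 199 and 320 FPKM in Id2KO (1.18 ± 0.26; 0.145). With Id2 present, Cd3e had 320, 386 and 419 FPKM in Tcf1KO and 147, 139 and 111 FPKM in Ctrl (1.5 ± 0.28; limma adjusted p = 0.195). Cd3d, given above, lay lower in every DKO library than in every Id2KO library. Cd163l1, which gamma delta T cells carry as a scavenger receptor, likewise had 2.04, 2.44 and 1.23 FPKM in DKO and 5.54, 7.28 and 5.26 FPKM in Id2KO (-1.29 ± 0.25; limma adjusted p = 0.11). Of the 7 NKT and gamma delta T markers tested, 0 were called and the median was 0.84; 4 did not overlap and were higher (6.34% of all tested genes) and 1 was lower (8.32%). Il23r, a receptor chain for interleukin-23, was at 0 in all DKO and Id2KO libraries. Of the 17 genes of the receptor complex 0 were called, 11 were positive, 6 did not overlap and were higher, 3 were lower, and the median was 0.35.

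**Figure D4:**
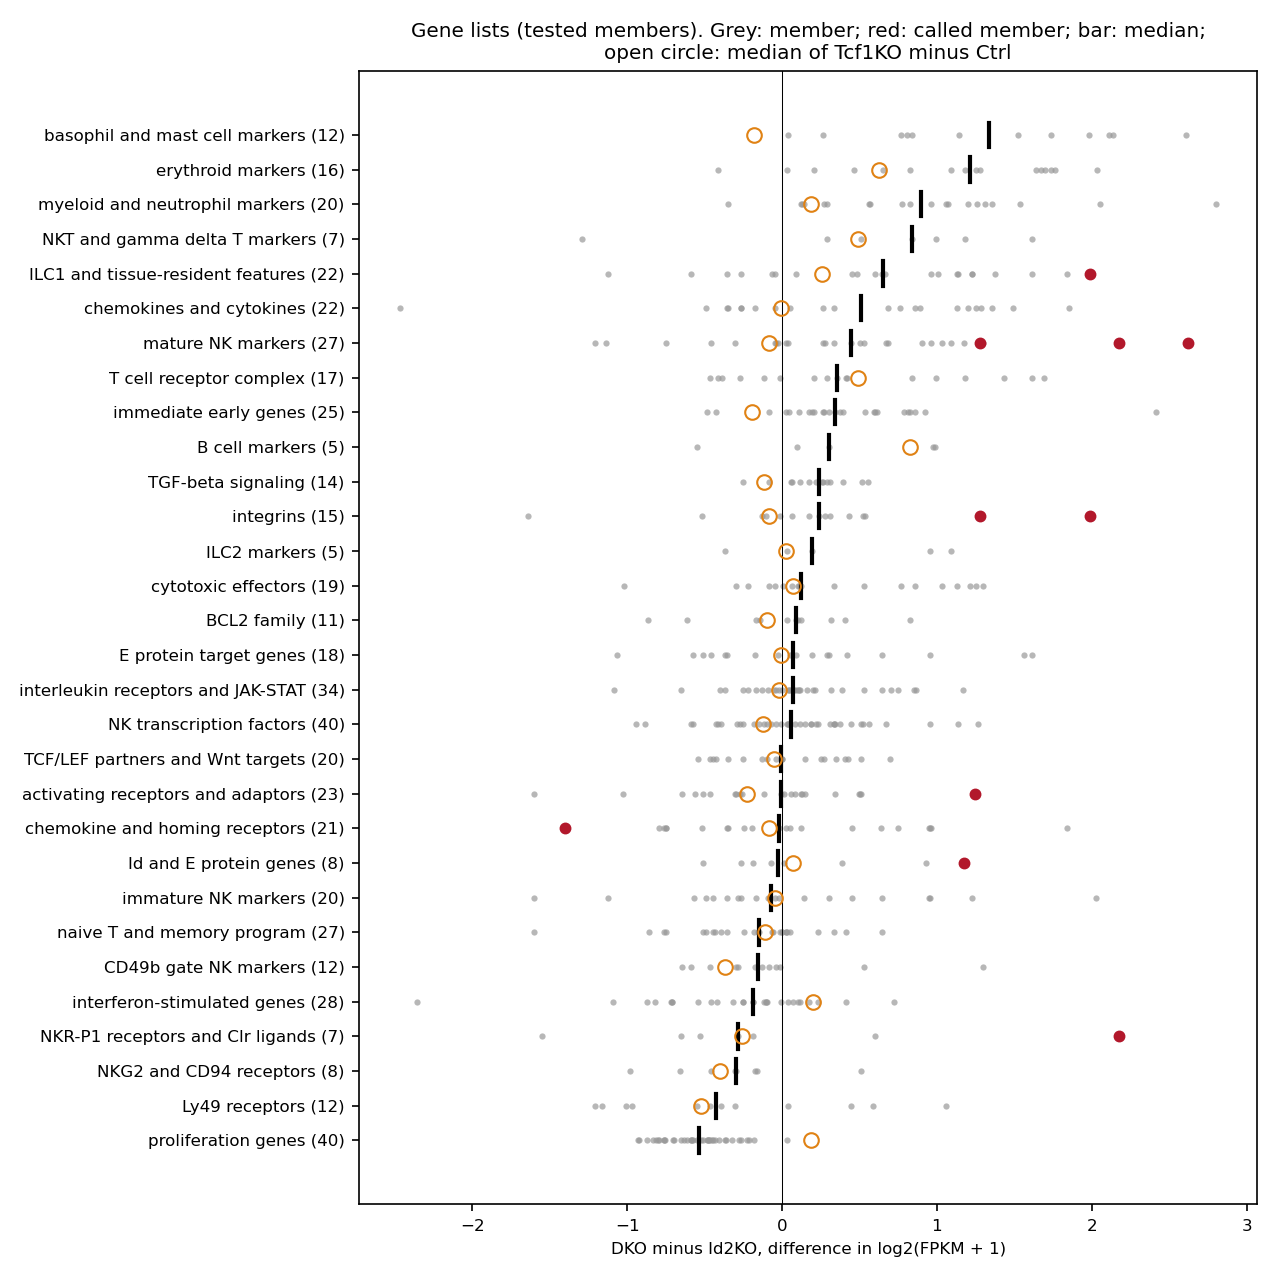
Difference in log2(FPKM + 1) of DKO minus Id2KO for the tested members of each of 30 lists (grey points, called members red, black bar at the median), with an open circle at the median of Tcf1KO minus Ctrl and the number tested in brackets. Mature NK markers lie at 0.45 and -0.09, ILC1 features at 0.65 and 0.26, and proliferation genes at -0.53 and 0.18.

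Proliferation genes were lower in DKO in nearly every case, although none passed the test. Of the 40 genes, 39 differences were negative, 0 were called, 14 did not overlap and were lower in DKO (8.32% of all tested genes), and the median was -0.53. Their mean log2(FPKM + 1) was 2.93, 2.80 and 2.47 in DKO libraries and 3.51, 3.13 and 3.19 in Id2KO libraries, without overlap. Between Tcf1KO and Ctrl the median was 0.18, with 31 of 40 positive, and the means were 3.86, 3.51 and 3.27 in Tcf1KO and 3.73, 3.33 and 3.11 in Ctrl, which overlapped. Cdk1, the kinase that drives entry into mitosis, had 1.38, 1.32 and 1.78 FPKM in DKO libraries and 3.49, 3.01 and 3.85 FPKM in Id2KO libraries (-0.84 ± 0.17; limma adjusted p = 0.121). Stmn1, a microtubule regulator of dividing cells, had 3.92, 2.67 and 1.20 FPKM in DKO and 6.29, 5.54 and 4.80 FPKM in Id2KO (-0.93 ± 0.26; 0.217). Pbk, called lower above, is not in this list. Dividing erythroid and myeloid precursors carry these genes too, and the medians of the erythroid and myeloid marker lists were 1.22 and 0.89; their part was not tested. Without Id2KO replicate 1 these medians were 0.76 and 0.20, and without Id2KO replicate 3 they were 1.90 and 1.56. The genes of one cell cycle program move together, so their number is not a number of independent observations.

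**Figure D5:**
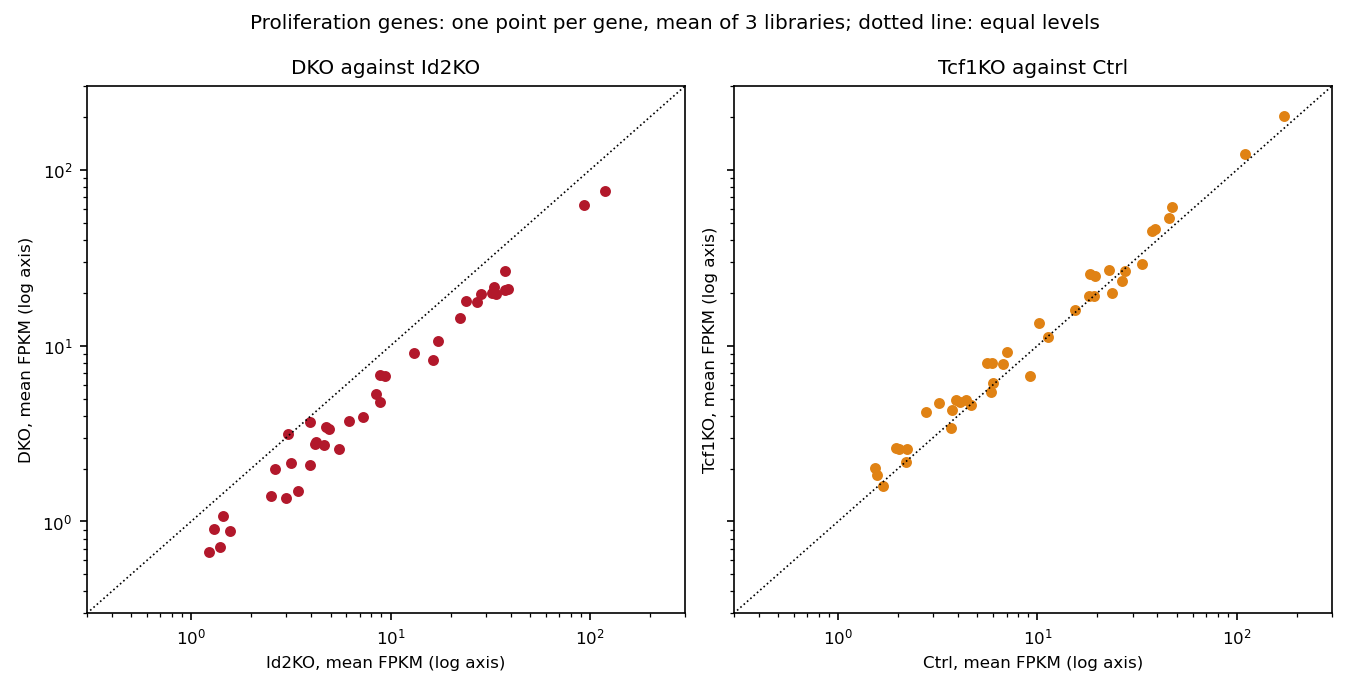
Mean FPKM (log axes) of the 40 proliferation genes, a point for each gene, in DKO against Id2KO (left) and in Tcf1KO against Ctrl (right), with a dotted line at equal levels. In the left panel 39 of 40 differences are negative, and in the right panel 31 of 40 are positive.

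Transcription factors and signalling genes held few clear differences. Of 40 NK transcription factors 0 were called, 23 were positive and the median was 0.06 (0.03 without Id2KO replicate 3). Eomes, a T-box factor of NK cells, had 24.4, 25.6 and 27.1 FPKM in DKO and 46.6, 43.0 and 29.9 FPKM in Id2KO (-0.59 ± 0.17; limma adjusted p = 0.23), and Rora, a nuclear receptor of innate lymphoid cells, had 2.13, 2.73 and 1.70 FPKM in DKO and 0.642, 0.391 and 0.883 FPKM in Id2KO (0.96 ± 0.23; 0.172). Of the 8 Id and E protein genes Id2, itself targeted, alone was called (0.121% of all tested genes). Of 20 TCF/LEF partners and Wnt targets, Tcf7 itself among them, 0 were called and 9 were positive. Dkk1, Notum, Porcn and Sp5 were at 0 throughout DKO and Id2KO. Axin2, a common target of this pathway, had 1.54, 1.37 and 1.46 FPKM in DKO and 0.555, 0.367 and 0.637 FPKM in Id2KO, higher in every DKO library (0.70 ± 0.25; limma adjusted p = 0.342). Of 18 E protein targets 0 were called and the median was 0.07, with -0.09 without DKO replicate 3 and 0.22 without Id2KO replicate 3.

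In the 34 interleukin receptor and JAK-STAT genes 0 were called. Jak2 had 21.05, 20.7 and 21.3 FPKM in DKO and 12.2, 14.4 and 10 FPKM in Id2KO (0.75 ± 0.15; limma adjusted p = 0.121). Cish, a feedback inhibitor of cytokine signalling, had 3.20, 1.30 and 3.52 FPKM in DKO and 0.289, 0.718 and 0.741 FPKM in Id2KO, while Socs2, another such inhibitor, had 0.970, 0.859 and 0.942 FPKM in DKO and 2.39, 4.96 and 2.38 FPKM in Id2KO. Neither overlapped and they lay on opposite sides. Of 14 TGF-beta genes 0 were called and 12 were positive (median 0.24, but 0.09 without DKO replicate 3), and of 22 chemokine and cytokine genes 0 were called, 7 did not overlap and were higher (6.34% of all tested genes), 1 was lower (8.32%), and the median was 0.51. Of 28 interferon-stimulated genes 0 were called and 20 were negative (median -0.19). Bst2, the membrane tether of budding viruses, had 4.11, 6.55 and 1.56 FPKM in DKO and 18.2, 30.3 and 20.9 FPKM in Id2KO (-2.35 ± 0.47; limma adjusted p = 0.111). Of 25 immediate early genes 0 were called and 22 were positive (median 0.34, but 0.12 without DKO replicate 3 and 0.96 without DKO replicate 2), with summed levels that overlapped, from 969 to 2909 FPKM in DKO and 1123 to 2205 FPKM in Id2KO. Of 11 BCL2 family genes, 5 B cell markers and 5 ILC2 markers 0 were called, with medians of 0.09, 0.31 and 0.19. The B cell median was -0.17 without Id2KO replicate 1, the ILC2 median -0.04 without DKO replicate 3 and the BCL2 median -0.08 without DKO replicate 1.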

How the data were processed

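RNA was sequenced as total RNA libraries (Nugen Ovation Ultralow, NextSeq500, per the labels' protocols). The authors deposited FPKM for 37991 genes. Tools named in the submitters' processing notes are TopHat2 2.1.0, Trimmomatic 0.33, HTSeq 0.6.1 and edgeR, with build mm10. The strand setting is not given in the sources used here. Symbols came from GENCODE M21 (GRCm38) for 32919 IDs.

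The 12384 genes that reached 1 FPKM in 3 or more of the 12 libraries were tested on log2(FPKM + 1) with limma 3.58.1 in R 4.3.3: group means over all 12 libraries, eBayes with a variance trend, two-sided, Benjamini-Hochberg adjustment over all tested genes. Whole reads were recovered from the FPKM steps for 23702 of 23707 genes above 0 (tolerance 0.001 reads) for voom. The procedure was tested on simulated data. Replicate numbers of DKO and Id2KO did not pair (correlations of deviations -0.14, 0.03 and -0.10). Such correlations were not computed with Tcf1KO or Ctrl. Means of the proliferation genes fell from replicate 1 through 2 to 3 in DKO, Tcf1KO and Ctrl, but not in that order in Id2KO. Means of the immediate early genes were lowest in replicate 2 of DKO, Tcf1KO and Ctrl, and in replicate 1 of Id2KO. Whether libraries of one replicate number share a batch was not tested.

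The members and lists were chosen with earlier results of these data known. Named genes were Id2, Tcf7, the markers Fgl2, Klrb1b, Itga1, Itgam and Plxnc1, the called genes, the non-overlapping genes of smallest p up to 10 in a direction, and up to 4 members of each of 30 lists by smallest p. That rule left out receptor segments and genes named Gm or Rik. S1pr5, Hdac4, Cd3d and Gm16288 were named after their values were seen. Promoters came from RefSeq. Pseudocount, filter, scaling, trend, weights, block and left-out libraries were varied.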

Additional observations from a re-analysis of the deposited data

How the results depend on the processing

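The number of genes called between DKO and Id2KO, 15 in the main analysis, was 13 with a pseudocount of 0.1, 15 with 0.5, 15 without a filter, 8 with a filter at FPKM 5, 10 with libraries set to the same median, 19 without a variance trend, 15 with array weights, 11 with voom on recovered reads and 0 in a fit of the 6 DKO and Id2KO libraries alone. Leaving out each library gave 2 to 31. With the replicate block it was 15, of which 10 were among the 15 of the main analysis. Not called with the block were Id2 and Itgam (limma adjusted p = 0.0534 each), Apobec2 and Pbk (0.0537 each) and Lsm4 (0.0575). In a setting chosen after seeing the data the number was 12 without DKO replicate 1 and Id2KO replicate 3 (5 of them among the 15). These libraries were the highest of their own groups in markers of other cells, while some Tcf1KO and Ctrl libraries kept in that fit scored higher. With a term for those markers, also chosen after seeing the data, the number was 16 (8 of them among the 15). For the difference between DKO against Id2KO and Tcf1KO against Ctrl the number was 0, and 1 without a variance trend, with 0 to 1 over left-out libraries.

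None of the called genes changed sign under any alternative run on it (Gm23613 was not followed singly). The log2 difference, DKO minus Id2KO, turned negative for 4 uncalled genes. Over left-out libraries it ran from -0.064 (without Id2KO replicate 1) to 2.89 for S100a8, from -0.42 (without DKO replicate 3; -0.21 without Id2KO replicate 1) to 2.12 for Igkc, from -0.13 (without Id2KO replicate 2; -0.063 without Id2KO replicate 1) to 1.11 for Cd79a, and from -0.21 (without DKO replicate 3) to 0.63 for Arg1. With the term for other cells it was -0.087 for Cd79a, and with array weights -0.087 for Arg1. The cause was not tested. The planned edgeR test on recovered reads was not run, since the deposited unit is FPKM. With 3 libraries a group, 1 library can make or end a call.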
